A study of Mus musculus with 6 samples.

Results

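Immediate early and stress response genes were followed in osteoclast precursors of mice with inflammatory bone destruction. The 10 genes, chosen by symbol from 24346 in the files, were *Fos*, *Fosb*, *Jun*, *Junb*, *Jund*, *Egr1*, *Atf3*, *Ier2*, *Dusp1* and *Zfp36*. RNA-Seq was performed on EGFP+ cells sorted from the calvarial bone marrow of 6 CX3CR1-EGFP knock-in mice, in which EGFP stands under the *Cx3cr1* promoter and labels monocytic cells. The calvarial periosteum of all 6, controls included, was injected with lipopolysaccharide (LPS) at 20 mg/kg. The JAK inhibitor group (JAKi, n = 3) was also given oral ABT-317, which is selective for JAK1, at 60 mg/kg in 2 doses per day for 5 days, and the vehicle group (n = 3) received vehicle in its place. Cells were collected with a mortar 5 days after the LPS injection and were then sorted. Expression that arose during this handling cannot be told apart from expression in the mouse. No mice without LPS were analysed here. The age of these mice is not given in the sources used here. The study counts 3 mice per group, and the sample labels do not say so; p-values measure the spread between these 6 samples.

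Immediate early genes are transcribed within minutes of a stimulus, before any new protein is made, through factors that are already in the cell and are switched on by MAP kinases. Their mRNAs are short-lived, so the response is brief. FOS and JUN family proteins pair to form the AP-1 transcription factor, which is required for osteoclast differentiation and takes part in the macrophage response to LPS. DUSP1 removes phosphate from MAP kinases and ZFP36 binds AU-rich mRNAs and leads to their decay, so both end the response. ATF3 is a related leucine zipper factor that is induced by stress and restrains cytokine genes after LPS.

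In JAK inhibitor-treated mice, *Dusp1*, *Egr1*, *Fos*, *Jun* and *Junb* were lower than in every vehicle-treated mouse, and *Atf3* was higher than in every vehicle-treated mouse. The mean FPKM of *Egr1* was 4.39-fold, of *Dusp1* 2.94-fold, of *Fos* 2.07-fold and of *Jun* 1.93-fold higher with vehicle, while that of *Atf3* was 2.45-fold higher with JAK inhibitor. *Ier2*, *Zfp36* and *Jund* overlapped between the groups, and *Fosb* was below an FPKM of 1 in every mouse. At a threshold of 0.05, no member passed in limma after adjustment over 11301 tested genes, of which 15 (0.133%) did. At an unadjusted p under 0.05, 5 of the 9 tested members were lower, against 9.4% of all tested genes, and 1 was higher, against 6.57% (16% in either direction). Groups without overlap were found for 12.1% of all tested genes on the lower side and 9.92% on the higher side (22% in either direction).

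The start regions of 4 of these genes are shown because they are the genes with the largest differences for which sequence was at hand and because they carry different elements. RefSeq start regions (250 bases before to 50 bases after the start, GRCm38.p6) were matched for 8 of the 10 members, without *Egr1* and *Ier2*. Capitals mark the elements found by the search, and each sequence is written 5′ to 3′ on the strand of the gene.
Dusp1, chr17:26508520-26508642, minus strand: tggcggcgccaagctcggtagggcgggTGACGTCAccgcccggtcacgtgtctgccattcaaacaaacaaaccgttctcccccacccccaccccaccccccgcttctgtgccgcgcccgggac
Fos, chr12:85473720-85473889, plus strand: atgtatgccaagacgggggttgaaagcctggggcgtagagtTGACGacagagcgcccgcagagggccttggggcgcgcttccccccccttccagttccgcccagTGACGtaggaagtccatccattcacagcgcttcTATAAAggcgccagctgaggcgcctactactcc
Jun, chr4:95052223-95052392, minus strand: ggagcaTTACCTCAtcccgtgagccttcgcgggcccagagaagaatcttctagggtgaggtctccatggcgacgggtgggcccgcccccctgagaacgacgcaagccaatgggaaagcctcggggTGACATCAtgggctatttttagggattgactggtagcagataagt
Atf3, chr1:191183334-191183503, minus strand: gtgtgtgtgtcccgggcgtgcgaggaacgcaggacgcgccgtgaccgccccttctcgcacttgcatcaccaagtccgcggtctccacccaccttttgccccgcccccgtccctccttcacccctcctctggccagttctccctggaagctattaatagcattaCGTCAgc

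Each of the 4 runs begins 170 bases upstream of the start and ends at the base before it, except that of *Dusp1*, which ends 48 bases upstream. Of the *Atf3* run, 7 bases lie in an annotated exon of GENCODE M21, and the *Dusp1* and *Atf3* runs lie inside the annotated gene spans. The cAMP response element TGACGTCA, bound by CREB and ATF factors, was searched on both strands and was found in *Dusp1*, 143 bases upstream, and in 1.79% of all 32851 start regions. Its core TGACG, which the full element contains and which was also searched on both strands, was found in 5 of the 8 members (*Dusp1*, *Fos*, *Fosb*, *Junb* and *Atf3*) and in 20.8% of all. In *Fos* it lies 66 and 129 bases upstream, and in *Atf3* it lies on the other strand, 7 bases upstream. The AP-1 element TGACTCA was found in none of the 8 members searched and in 5.20% of all start regions. The AP-1-like elements of the *Jun* promoter, TGACATCA and TTACCTCA, were found in *Jun* 45 and 164 bases upstream, and in 3.62% and 0.889% of all start regions. The CArG box, which serum response factor binds, was found in *Zfp36* alone among the 8 members searched, 58 bases upstream, and in 1.63% of all. The STAT element TTCNNNGAA was also found in *Zfp36* alone among these 8, 17 bases upstream, and in 8.30% of all. TATAAA on the gene's strand was found in *Fos* and *Junb* and in 8.32% of all. These are matches of letters in a short window, not measured sites.

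FPKM is scaled by transcript length, so levels can be set side by side between genes. In vehicle-treated mice *Ier2* had the highest mean FPKM (177), followed by *Junb* (132), *Fos* (131) and *Dusp1* (126), whose ranges overlapped, and then by *Zfp36* (87.6), *Jun* (25.7), *Jund* (18.0), *Egr1* (6.29) and *Atf3* (2.43). In JAK inhibitor-treated mice the order was *Ier2* (169), *Junb* (96.8), *Zfp36* (83.3), *Fos* (63.4), *Dusp1* (42.7), *Jund* (14.5), *Jun* (13.3), *Atf3* (5.96) and *Egr1* (1.43). *Dusp1* thus stood above *Zfp36* in every vehicle-treated mouse and below it in every JAK inhibitor-treated mouse, and the same held for *Egr1* against *Atf3*. *Jund* and *Jun* overlapped in JAK inhibitor-treated mice, and so did *Zfp36* and *Fos*. By mean level over the 6 mice, *Ier2*, *Junb*, *Fos*, *Zfp36* and *Dusp1* lay between the 87.4th and the 93.7th percentile of the tested genes, whereas *Atf3* and *Egr1* lay at the 28.1st and the 26.4th.

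**Figure D1:**
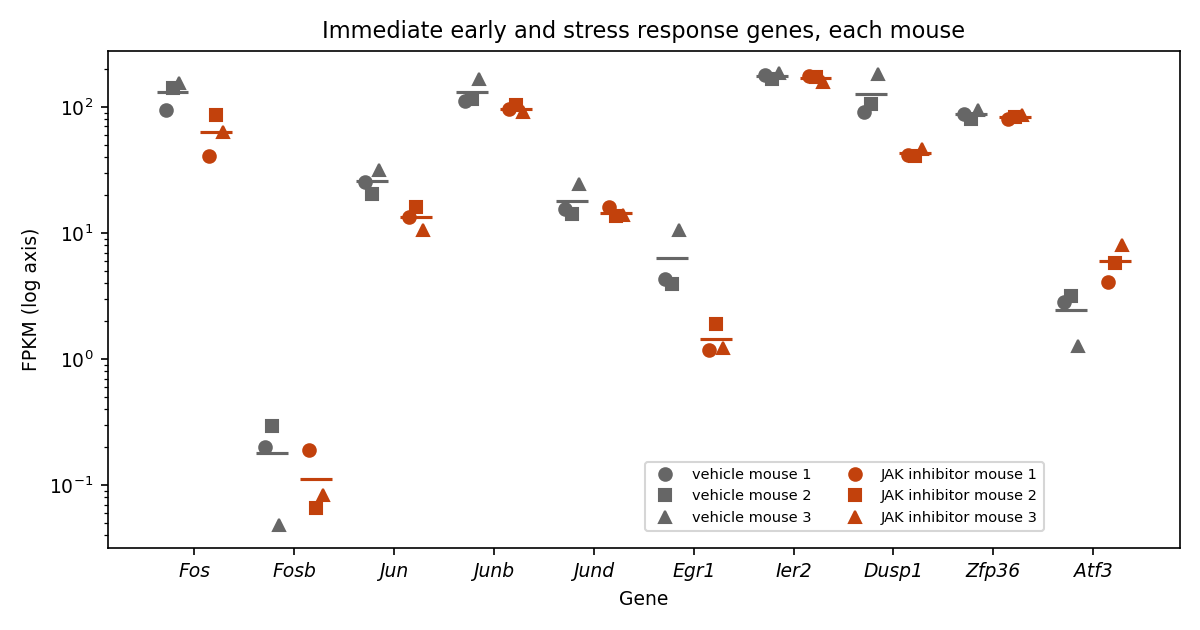
FPKM (log axis) of the 10 genes in each of the 6 mice, with vehicle in grey, JAK inhibitor in orange, and a horizontal line at each group mean. Marker shapes give mouse numbers, which were not treated as pairs. All 3 JAK inhibitor-treated mice lie below all 3 vehicle-treated mice for *Fos*, *Jun*, *Junb*, *Egr1* and *Dusp1* and above them for *Atf3*.

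Of the FOS family genes among the 10, *Fos* was abundant and *Fosb* was nearly silent. *Fos* (chromosome 12, 85473890 to 85477273, plus strand, GENCODE M21 on GRCm38) had an FPKM of 95.4, 142 and 156 in vehicle-treated mice 1 to 3 and of 41.2, 86.0 and 63.2 in JAK inhibitor-treated mice 1 to 3. The lowest vehicle-treated mouse was above the highest JAK inhibitor-treated mouse, but only by 95.4 against 86.0, and JAK inhibitor-treated mouse 1 stood well below the others. The means were 131 ± 31.8 (SD, n = 3) and 63.4 ± 22.4 (SD, n = 3), a log2 difference of -1.07 (standard error 0.26, 95% interval -1.66 to -0.48, adjusted p = 0.122 in limma). *Fosb* (chromosome 7, 19302696 to 19310051, minus strand), which encodes another AP-1 partner of the JUN proteins, had 0.199, 0.296 and 0.048 with vehicle and 0.189, 0.066 and 0.083 with JAK inhibitor. Genes had to reach an FPKM of 1 in any of the 6 mice to be tested, which *Fosb* did not, and its groups overlapped.

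The JUN genes differed from each other. *Jun* (chromosome 4, 95049034 to 95052222, minus strand), the partner of FOS with the strongest activating function, had an FPKM of 25.4, 20.3 and 31.4 with vehicle and of 13.3, 16.1 and 10.5 with JAK inhibitor. No values overlapped, and the log2 difference was -0.90 (standard error 0.19, 95% interval -1.33 to -0.47, adjusted p = 0.109 in limma). *Junb* (chromosome 8, 84974484 to 84978718, minus strand), a weaker activator that can replace JUN, had 112, 117 and 167 with vehicle and 95.7, 103 and 91.4 with JAK inhibitor. Vehicle-treated mouse 3 stood apart here, and vehicle-treated mouse 1 was close to JAK inhibitor-treated mouse 2. The log2 difference of *Junb* was -0.42 (standard error 0.15, 95% interval -0.76 to -0.09, adjusted p = 0.217 in limma), and -0.24 without vehicle-treated mouse 3. *Jund* (chromosome 8, 70698949 to 70700616, plus strand), which many resting cells express steadily, had 15.6, 14.0 and 24.4 with vehicle and 16.1, 13.7 and 13.8 with JAK inhibitor. Apart from vehicle-treated mouse 3, the 5 mice lay between 13.7 and 16.1, and the log2 difference was -0.26 (95% interval -0.70 to 0.18, adjusted p = 0.553 in limma), or -0.03 without that mouse. The test did not compare the JUN genes with each other.

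*Egr1*, a zinc finger transcription factor and a textbook early response gene, had an FPKM of 4.33, 3.94 and 10.6 with vehicle and of 1.18, 1.89 and 1.23 with JAK inhibitor. The groups were far apart for such low values, and vehicle-treated mouse 3 was 2.56 times the mean of the other vehicle-treated mice. The log2 difference was -1.48 (standard error 0.32, 95% interval -2.21 to -0.76, adjusted p = 0.109 in limma), and -1.09 without that mouse. On this scale the change of a gene with a low FPKM is understated, and a pseudocount of 0.1 gave -1.94. *Ier2* (chromosome 8, 84661331 to 84662852, minus strand), an early response nuclear protein, had 178, 168 and 185 with vehicle and 177, 171 and 158 with JAK inhibitor. Its values overlapped, with a log2 difference of -0.07 (95% interval -0.26 to 0.13, adjusted p = 0.745 in limma), whose sign turned with quantile normalization. It was the most abundant of the 10 genes in every mouse, most narrowly in vehicle-treated mouse 3, where *Dusp1* reached 181.

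The members that end the response also differed. *Dusp1* (chromosome 17, 26505590 to 26562128, minus strand) had an FPKM of 91.1, 105 and 181 in vehicle-treated mice and of 41.6, 40.6 and 46.0 in JAK inhibitor-treated mice. The JAK inhibitor-treated mice lay close together, with a coefficient of variation of 6.76%, and below the range of the vehicle-treated mice, where it was 38.4%. The means were 126 ± 48.3 (SD, n = 3) and 42.7 ± 2.89 (SD, n = 3), a log2 difference of -1.47 (standard error 0.22, 95% interval -1.97 to -0.98, unadjusted p = 9e-05 and adjusted p = 0.0557 in limma). This was the smallest p of the 10 genes, and 17 of the 11301 tested genes had a smaller one. The adjusted p was 0.0242 without vehicle-treated mouse 3 (log2 difference -1.18), and over the alternatives it ranged from 0.0182 to 0.343. *Zfp36* (chromosome 7, 28376784 to 28380253, minus strand) had 88.4, 79.5 and 94.9 with vehicle and 79.5, 83.9 and 86.3 with JAK inhibitor. Its groups overlapped, with a log2 difference of -0.07 (95% interval -0.29 to 0.15, adjusted p = 0.768 in limma).

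*Atf3* (chromosome 1, 191170296 to 191218039, minus strand) was the one member on the higher side. Its FPKM was 2.85, 3.18 and 1.27 with vehicle and 4.12, 5.74 and 8.04 with JAK inhibitor. Vehicle-treated mouse 3, which had the highest value of the other 8 tested members, had the lowest of *Atf3*. The means were 2.43 ± 1.02 (SD, n = 3) and 5.96 ± 1.97 (SD, n = 3), a log2 difference of 1.03 (standard error 0.29, 95% interval 0.38 to 1.68, adjusted p = 0.153 in limma), and 0.76 without vehicle-treated mouse 3. For each of the 6 members without overlap, the exact 2-sided permutation test of 3 against 3 values gave p = 0.1, the smallest it can give; the exact p was 0.4 for *Ier2* and *Zfp36*, 0.5 for *Jund* and 0.6 for *Fosb*.

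**Figure D2:**
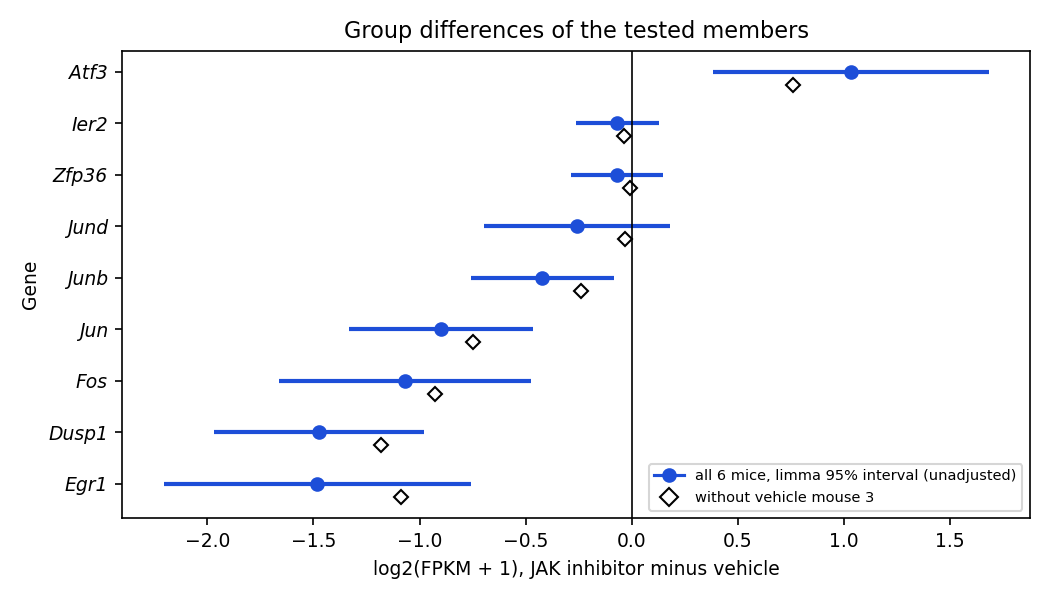
Difference in log2(FPKM + 1), JAK inhibitor minus vehicle, for the 9 tested members; dots and bars give the limma estimate and its unadjusted 95% interval over all 6 mice, and diamonds give the estimate without vehicle-treated mouse 3. The intervals of *Ier2*, *Zfp36* and *Jund* cross 0, that of *Atf3* lies above 0 and the others lie below it, and each diamond lies nearer to 0 than its dot.

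*Atf3* was set against the AP-1 genes and *Egr1* as log2(FPKM + 1) of *Atf3* minus the mean log2(FPKM + 1) of *Fos*, *Fosb*, *Jun*, *Junb*, *Jund* and *Egr1*. This was -2.20, -2.11 and -3.48 in vehicle-treated mice and -1.19, -1.04 and -0.36 in JAK inhibitor-treated mice. All JAK inhibitor-treated mice lay above all vehicle-treated mice, with a gap of 0.91 between the nearest mice. The means were -2.60 ± 0.77 (SD, n = 3) and -0.86 ± 0.44 (SD, n = 3), a difference of 1.73, and 1.29 without vehicle-treated mouse 3. The genes were chosen with earlier results known, so no test is given. For each 100 FPKM of *Egr1*, *Atf3* had 65.6, 80.8 and 12.0 FPKM with vehicle and 349, 304 and 653 with JAK inhibitor. *Egr1* therefore exceeded *Atf3* in each vehicle-treated mouse, and *Atf3* exceeded *Egr1* in each JAK inhibitor-treated mouse. For each 100 FPKM of *Fos*, *Atf3* had 2.98, 2.23 and 0.814 with vehicle and 10, 6.68 and 12.7 with JAK inhibitor. The ratios to *Jun*, *Junb* and *Jund* did not overlap between the groups either, whereas the ratio to *Fosb* did. For *Egr1*, *Fos*, *Jun* and *Junb* the lack of overlap was bound to follow. Each of these genes was lower, and *Atf3* higher, in every JAK inhibitor-treated mouse than in every vehicle-treated mouse. Their ratios therefore restate the separation of the single genes. Only the ratios to *Jund* and *Fosb*, whose own values overlapped, could have come out either way.

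**Figure D3:**
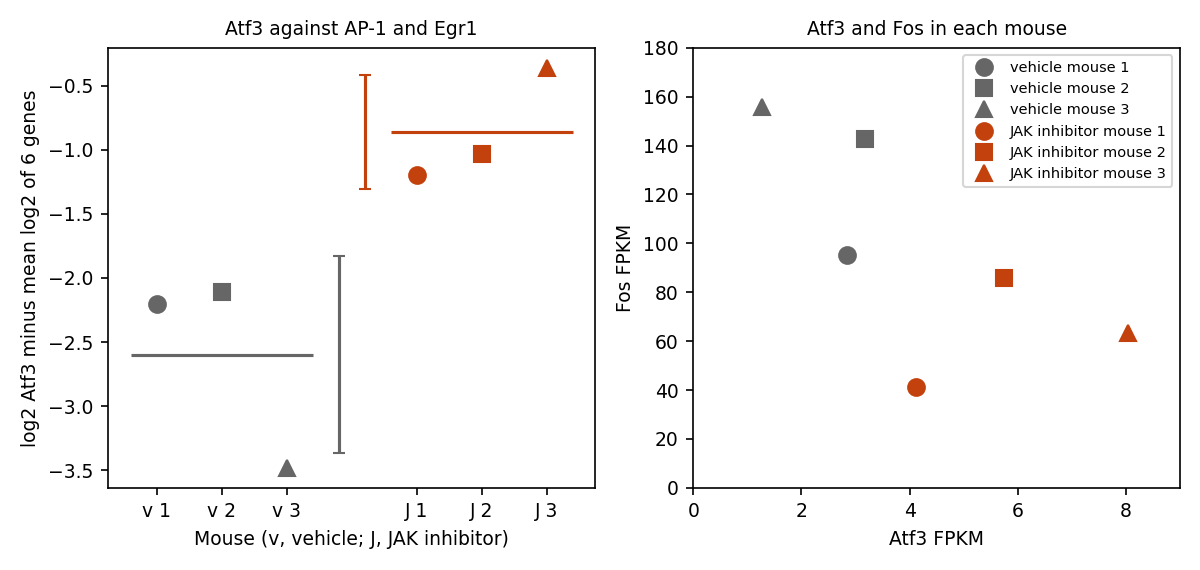
Left, log2(FPKM + 1) of *Atf3* minus the mean of the 6 AP-1 and *Egr1* genes in each mouse, with horizontal lines at the group means and bars of 1 SD in each direction (n = 3). Right, FPKM of *Atf3* against FPKM of *Fos* in the 6 mice; the JAK inhibitor-treated mice lie from 4.12 to 8.04 for *Atf3* and from 41.2 to 86.0 for *Fos*, to the right of and below the vehicle-treated mice.

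Vehicle-treated mouse 3 bears on most of these values. It was the highest of the 6 mice for 8 of the 9 tested members, while 25.3% of all tested genes had their highest value there, and its weight in a fit with weights for each library was 0.437, against 0.976 to 1.48 for the others. Without it, 5 members were still lower (7.82% of all genes) and 1 higher (5.15%) at an unadjusted p under 0.05. *Junb* left this count without JAK inhibitor-treated mouse 1 or 3, which gave 4 lower and 1 higher in each case (7.31% and 4.65% of all genes without mouse 1, 7.16% and 4.88% without mouse 3). Among the vehicle-treated mice, the coefficient of variation ran from 4.82% for *Ier2* to 59.4% for *Egr1* over the tested members, and among the JAK inhibitor-treated mice from 4.16% for *Zfp36* to 35.3% for *Fos*.

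Several members share sequence with other annotated genes. *Junb* overlaps 351 bases of *Prdx2* on the opposite strand, and the FPKM of *Prdx2* averaged 326 ± 45.2 in vehicle-treated and 345 ± 13.6 in JAK inhibitor-treated mice (SD, n = 3 each). *Dusp1*, whose annotated span is 56539 bases long, overlaps 640 bases of *Ergic1* on the opposite strand, which averaged 26.7 ± 8.86 and 22.3 ± 0.499 (SD, n = 3 each). On the same strand this span also overlaps AC122252.4 (227 bases) and AC122252.1 (1853 bases), which have no values here. *Jun*, *Jund* and *Zfp36* overlap antisense genes that have no values here. The sources used here do not say whether strand was used in counting, so reads from the opposite strand cannot be told apart.

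The sorted cells matched the labelled lineage in part. From the monocyte and macrophage list, *Lyz2* and *Ly6c2* had a mean FPKM of 29367 and 3944 with vehicle and of 29655 and 4348 with JAK inhibitor. These levels alone do not set monocytes apart from the neutrophil lineage, whose genes are given below. Of the B cell markers, *Ms4a1*, *Ebf1* and *Pax5* were at 0 in every mouse, *Cd79a* was below 1, and *Cd79b* stood at 26.7 to 35.4. The 7 stromal markers summed to between 3.15 and 7.07, most of it *Runx2*. The 10 monocyte and macrophage markers summed to 28750 to 38011 with vehicle and 29176 to 38612 with JAK inhibitor, most of it *Lyz2* and *Ly6c2*. At an unadjusted p under 0.05, 3 were lower and 0 higher. The 3 were *Fcgr1* (means 8.50 with vehicle and 3.14 with JAK inhibitor), *Cd14* (101 and 55.3) and *Itgam* (99.3 and 77.4). *Cx3cr1* had 30.1, 31.5 and 15.5 with vehicle and 30.1, 29.5 and 36.1 with JAK inhibitor. Marker counts here stand against 9.4% lower and 6.57% higher of all tested genes. Neutrophil lineage genes were abundant in both groups, with *S100a8* at a mean FPKM of 11408 and 7740; the 9 listed here summed to 17123 to 23224 and 17239 to 24366, with 2 lower and 3 higher. Among the 3 was *Mpo*, a gene of immature neutrophils and their precursors, with 3105 ± 1296 (SD, n = 3) and 5519 ± 508 (SD, n = 3). *Elane*, also among the 3, averaged 1924 in vehicle-treated and 3880 in JAK inhibitor-treated mice, whereas *Mmp8*, among the 2, averaged 248 and 115. The similar neutrophil sums thus hold changes in opposite directions and do not show an unchanged neutrophil part. Osteoclast markers, of which 5 of 6 tested were lower and *Calcr* was at 0 in every mouse, summed to 165.7 to 577 with vehicle and 106.7 to 112 with JAK inhibitor, and were highest in vehicle-treated mouse 3. Of those tested, *Ocstamp*, *Dcstamp* and *Oscar* reached the filter only with vehicle, so they were favoured on the lower side. *Ctsk*, *Acp5* and *Atp6v0d2* reached it in both groups. T and NK cell markers (1 of 5 tested higher, *Nkg7*) summed to 170.3 to 365 and 491 to 562, but *Nkg7* alone made up 166.6 to 363 and 489 to 557 of this, and *Cd3d*, *Cd3e*, *Cd3g*, *Cd8a*, *Klrb1c* and *Ncr1* were each below 2 in every mouse with overlapping groups. Erythroid markers (2 of 4 tested higher) summed to 0.696 to 2.77 and 6.10 to 51.1, of which *Hba-a1* in JAK inhibitor-treated mouse 3 was 38.6. Megakaryocyte markers (1 of 2 tested lower, *Pf4*) summed to 23.7 to 57.0 and 9.10 to 24.6, and dendritic cell markers (1 of 5 tested higher) to 34.1 to 49.0 and 31.6 to 45.0. Their part in the values of the immediate early genes was not tested, and in bulk RNA fewer cells of a type and less RNA per cell cannot be told apart.

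Other immediate early genes lay on both sides of 0. Of 26 listed genes, 20 were tested, of which 2 were lower and 6 higher at an unadjusted p under 0.05 (9.4% and 6.57% of all tested genes), and the median log2 difference was 0.11, against -0.004 over all tested genes. *Ier3*, which encodes a short-lived regulator of cell survival, had an FPKM of 26.6, 29.3 and 57.4 with vehicle and of 17.0, 12.4 and 15.9 with JAK inhibitor (log2 difference -1.19, adjusted p = 0.109 in limma). *Nr4a1*, an orphan nuclear receptor induced by the same signals, had 63.2, 26.7 and 21.6 with vehicle and 83.3, 79.8 and 62.7 with JAK inhibitor, so vehicle-treated mouse 1 lay within the range of the other group (log2 difference 1.14, adjusted p = 0.159 in limma). *Klf10*, a TGF-β-inducible repressor, had 40.2, 38.5 and 40.6 against 50.4, 56.2 and 51.6, and *Ier5* had 10.4, 9.64 and 10.8 against 14.3, 13.1 and 14.8. *Klf10* and *Ier5* were higher in 3 of 3 JAK inhibitor-treated mice, with adjusted p of 0.117 and 0.160 in limma. Of the other relatives of *Fos* and *Egr1*, which were named after their values were seen, *Fosl2* had 2.56, 2.76 and 3.09 with vehicle and 4.42, 3.32 and 3.22 with JAK inhibitor, without overlap and on the other side from *Fos* (log2 difference 0.28, adjusted p = 0.481 in limma). *Egr2* had means of 0.595 and 0.0783 with overlapping groups (adjusted p = 0.456 in limma), and *Fosl1* and *Egr3* were below an FPKM of 0.1 in every mouse. The 8 genes past the threshold in this list became 5 without vehicle-treated mouse 3 and 5 without JAK inhibitor-treated mouse 1.

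Of 17 tested genes for partners with which AP-1 and ATF factors pair, 3 were lower and 0 higher at an unadjusted p under 0.05 (9.4% and 6.57% of all tested genes), with a median log2 difference of -0.12. *Jdp2*, whose protein pairs with JUN and takes part in osteoclast differentiation, had 35.6, 22.1 and 57.4 with vehicle and 20.4, 13.5 and 16.2 with JAK inhibitor (log2 difference -1.07, adjusted p = 0.152 in limma). *Mafg*, a small MAF protein, had 35.4, 43.9 and 39.9 against 33.8, 29.9 and 33.4 (adjusted p = 0.267 in limma). *Nfil3*, a leucine zipper repressor, had overlapping groups with means of 55.3 and 42.5 (adjusted p = 0.294 in limma). Without vehicle-treated mouse 3, or with quantile normalization, 1 of the 17 was past the same threshold.

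Upstream of the immediate early genes lie MAP kinases and the arm of serum response factor with its cofactors. The 21 tested genes of this list, not all of them kinases, had a median log2 difference of -0.01. Of these, 1 was lower and 2 were higher (9.4% and 6.57% of all tested genes). *Mapk3*, which encodes the ERK1 kinase, had 54.5, 48.3 and 44.6 with vehicle and 78.7, 58.6 and 62.0 with JAK inhibitor (log2 difference 0.42, adjusted p = 0.184 in limma). *Map2k3*, which encodes an activator of p38, had 97.8, 92.7 and 103 against 79.0, 82.9 and 83.6 (log2 difference -0.25, adjusted p = 0.207 in limma). *Mkl1*, a cofactor of serum response factor, had means of 12.3 and 16.3 (adjusted p = 0.210 in limma).

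Feedback genes other than *Dusp1* and *Zfp36* lay on both sides of 0. Of 9 tested phosphatases and Sprouty or SPRED genes, 1 was lower and 1 higher (9.4% and 6.57% of all tested genes), with a median log2 difference of 0.26. *Dusp5*, an inducible nuclear phosphatase of ERK, had 5.31, 4.40 and 1.503 with vehicle and 10.6, 9.04 and 7.24 with JAK inhibitor, the opposite order to *Dusp1* (log2 difference 1.16, adjusted p = 0.152 in limma). *Spred1*, an inhibitor of RAS signaling, had 5.53, 5.88 and 6.36 against 3.81, 2.96 and 3.68 (log2 difference -0.63, adjusted p = 0.125 in limma). Among 11 RNA decay factors, all of which were tested, 1 was lower and 1 higher, with a median of -0.02. *Zfp36l2*, a relative of *Zfp36*, had 21.7, 18.7 and 23.6 with vehicle and 37.6, 30.5 and 29.1 with JAK inhibitor (log2 difference 0.58, adjusted p = 0.117 in limma). *Zc3h12c*, a relative of the RNase regnase-1, had means of 1.94 and 1.03 (adjusted p = 0.277 in limma).

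Transcripts that ZFP36 is known to destabilise lay on the lower side in each of the 7 that could be tested. Of 14 listed, 7 reached the filter, 4 of these were lower and 0 higher at an unadjusted p under 0.05 (9.4% and 6.57% of all tested genes), and the median log2 difference of the 7 was -0.71. This median was -0.34 without the filter and -0.41 without JAK inhibitor-treated mouse 3. *Ccl3*, a chemokine, had 33.3, 31.5 and 27.2 with vehicle and 17.1, 15.1 and 22.8 with JAK inhibitor (log2 difference -0.73, adjusted p = 0.109 in limma). *Cxcl2*, a neutrophil chemokine, had 1.36, 0.800 and 1.33 against 0.202, 0.218 and 0.186 (log2 difference -0.84, adjusted p = 0.147 in limma). *Il1b* had 70.0, 54.3 and 83.8 against 60.5, 43.5 and 46.3, with overlap (adjusted p = 0.254 in limma), and *Ier3*, given above, also belongs to this list.

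Genes of 3 stress programs were read against the same shares of all tested genes, 9.4% lower and 6.57% higher. In the integrated stress response, in which ATF4 induces genes of amino acid supply, 5 of 14 tested genes were lower and 0 higher, with a median log2 difference of -0.25; 3 of the 14 were past the threshold without vehicle-treated mouse 3 or without JAK inhibitor-treated mouse 1 or 3. *Phgdh*, the first enzyme of serine synthesis, had 247, 230.2 and 204 with vehicle and 139, 165 and 151 with JAK inhibitor (log2 difference -0.58, adjusted p = 0.0876 in limma). *Shmt2*, a mitochondrial enzyme of serine use, had 81.8, 81.3 and 83.3 against 48.2, 62.9 and 60.6 (adjusted p = 0.109 in limma). *Asns*, the asparagine synthetase gene, had overlapping groups with means of 21.1 and 15.1 (adjusted p = 0.277 in limma). *Ddit4*, an inhibitor of mTORC1, had 1.07, 1.41 and 2.62 against 0.340, 0.336 and 0.452 (adjusted p = 0.152 in limma). Of 14 genes of the unfolded protein response, 6 were lower and 0 higher, with a median of -0.14, but 0 of the 14 were past the threshold without vehicle-treated mouse 1, 1 without vehicle-treated mouse 2, and 3 without any 1 of the JAK inhibitor-treated mice. *Hspa5*, the chaperone of the endoplasmic reticulum, had 748, 769 and 624 with vehicle and 575, 586 and 589 with JAK inhibitor (log2 difference -0.28, adjusted p = 0.209 in limma). *Manf*, *Herpud1* and *Sdf2l1* had log2 differences of -0.31, -0.27 and -0.27. Of 12 tested heat shock genes, 0 were lower and 1, the regulator *Hsf1*, was higher (log2 difference 0.42, adjusted p = 0.169 in limma), with a median of -0.02, and 3 were past the threshold without vehicle-treated mouse 3.

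**Figure D4:**
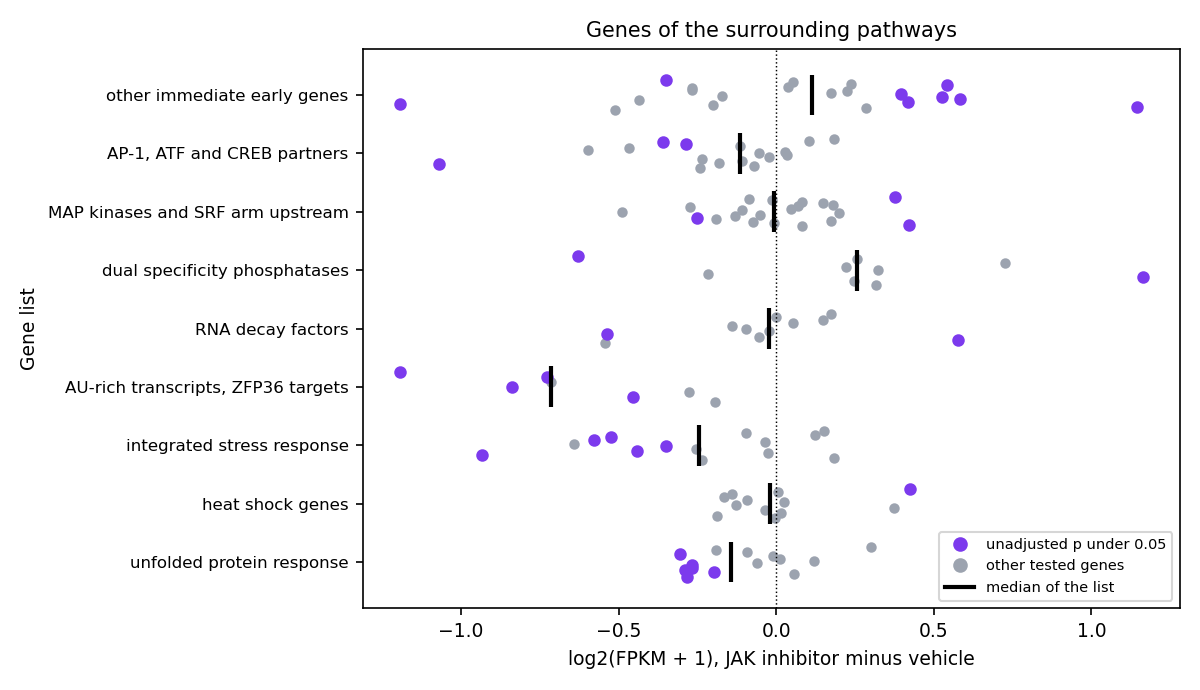
Difference in log2(FPKM + 1), JAK inhibitor minus vehicle, for each tested gene (dots) of the 9 surrounding lists; purple marks an unadjusted p under 0.05 and black bars the medians. The medians run from -0.71 for the AU-rich transcripts to 0.26 for the phosphatases, and the dots of most lists lie on both sides of 0.

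The genes with the pattern most like *Atf3* over the 6 mice were *Gria3*, *Cd300lb*, *Klrb1f*, *Clec7a* and *Haao*, with a root mean square distance of 0.18 to 0.24 on the log2 scale after each gene was centred on its own mean, among 7741 genes with a mean FPKM of at least 5. *Clec7a*, which encodes the receptor dectin-1, had 41.5, 51.0 and 24.7 with vehicle and 82.7, 86.0 and 90.2 with JAK inhibitor. For *Fos* they were *Slc44a1*, *Il1f9*, *Fn1*, *Iqcc* and *Tbcd*, at 0.20 to 0.30 among 7740 genes. *Slc44a1*, a choline transporter, had 6.56, 12.3 and 14.4 against 3.24, 5.39 and 6.01. In the order of nearness to *Fos*, *Jun* stood at place 52, *Dusp1* at 86 and *Junb* at 190, while *Jund*, *Zfp36* and *Ier2* stood at 1856, 2424 and 2973.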

How the data were processed

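For each of the 6 samples (3 JAK inhibitor, 3 vehicle) the authors deposited a table of FPKM values for 24346 gene symbols. Per the labels' processing notes, TopHat2 2.0.13, Bowtie2 2.2.3, SAMtools 0.1.19 and Cufflinks 2.2.1 were used with mm10; the annotation is not given in the sources used here. The labels name a SMART-Seq HT and Nextera library, the study's methods a TruSeq Stranded one. The unit was inferred from the tool and the values. FPKM summed to 688372 to 775790 per mouse; read depth is unknown, so no counting intervals are given.

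The 11301 genes that reached an FPKM of 1 in any mouse were tested on log2(FPKM + 1), a scale that understates the change of low genes, with limma 3.58.1 in R 4.3.3 (empirical Bayes with trend, Benjamini-Hochberg adjustment). "Lower" and "higher" in counts refer to an unadjusted p under 0.05. The fit was tested on simulated data. The members and lists were chosen with earlier results of these data known. Named were all members, up to 4 genes per pathway list with the smallest p under 0.05, the 5 genes nearest to *Atf3* and to *Fos*, and leading markers; other genes are marked, and further markers were named after their values were seen. Promoters are from RefSeq (GRCm38.p6), positions from GENCODE M21; all 10 members were found there. Alternatives were a pseudocount of 0.1, other filters, quantile and median-ratio scaling, no trend, library weights, a block for the replicate number, and the omission of single mice. Exact tests used SciPy 1.17.1, tables pandas 2.3.3 and NumPy 2.4.6, and figures matplotlib 3.10.9, under Python 3.11.15.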

Additional observations from a re-analysis of the deposited data

How the results depend on the processing

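The directions of *Fos*, *Jun*, *Junb*, *Jund*, *Egr1*, *Dusp1*, *Zfp36* and *Atf3* were the same in all 14 alternatives. For the members without overlap, only quantile and median-ratio scaling could have turned the direction. *Ier2* reversed with quantile normalization, to 0.0066. *Dusp1* passed an adjusted p of 0.05 in limma with a pseudocount of 0.1 (-1.49), a filter that asked for 1 FPKM in 3 mice (-1.47) and library weights (-1.28), and ranged from -1.67 to -1.18 with 1 mouse left out. Same-numbered mice were not treated as pairs, because the study's methods name no pairing. The correlations of their deviations were -0.000164, 0.0158 and 0.0542, which cannot settle whether a pairing existed. With the replicate block, *Dusp1* (-1.47, adjusted p = 0.0215) and *Fos* (-1.07, adjusted p = 0.0236) passed in limma, and the 15 genes past the adjusted threshold became 67. That number was 2 without a filter, 34 with the 3-mouse filter, 2 without the trend, 63 with library weights and 1 (without JAK inhibitor-treated mouse 2) to 25 (without vehicle-treated mouse 3) with 1 mouse left out; the cause was not tested.

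With 1 mouse left out, the *Atf3* difference against the 6 genes ran from 1.29 to 1.98. The median of other immediate early genes was 0.020 without a filter, 0.22 with the 3-mouse filter and 0.065 to 0.17 with 1 mouse left out, that of the AU-rich transcripts -0.34 without a filter and -0.78 to -0.41, that of the AP-1 partners -0.23 to -0.11 and that of the integrated stress response -0.39 to -0.20. The number of genes with an unadjusted p under 0.05 was 5 for other immediate early genes and 1 for RNA decay factors with library weights, 1 for AP-1 partners with quantile normalization, 3 for the integrated stress response without a filter, without the trend or with library weights, and 2 for heat shock genes without a filter or with library weights. With 1 mouse left out it ran from 5 to 6 for other immediate early genes, 1 to 3 for AP-1 partners, 2 to 4 for phosphatases, 1 to 3 for RNA decay factors, 3 to 6 for the integrated stress response, 1 to 3 for heat shock genes and 0 to 6 for the unfolded protein response.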
